A study of Mus musculus with 2 samples.

Results

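The uncoupling proteins and proton leak carriers are 8 nuclear genes of mitochondrial inner membrane carriers, *Ucp1*, *Ucp2*, *Ucp3*, *Slc25a14*, *Slc25a27*, *Slc25a30*, *Slc25a4* and *Slc25a5*. They were picked by name from the 52768 genes listed for interscapular brown adipose tissue (iBAT), and all 8 were found. Earlier results of these data were known when the members were picked. BKO mice were homozygous for a floxed *Mettl3* allele and carried 1 copy of the *Ucp1*-iCre driver (METTL3flox/flox UCP1-iCre+/-), while flox/flox mice carried the same floxed alleles without the driver. *Mettl3* encodes the catalytic subunit of the enzyme that writes N6-methyladenosine (m6A) on mRNA. All mice were C57BL/6 and 8 weeks old, and each genotype was 1 RNA-seq library of RNA pooled from 4 mice. With no replicate library there is no test between genotypes, p-values are not given, and what differs describes these 2 libraries alone. Ranges in parentheses are 95% intervals that cover counting error only, not the spread between mice or library preparations. In pieces of whole tissue, fewer cells of one type and less RNA per cell cannot be told apart.

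*Ucp1* has a double role in this design. Per the study's methods the driver sits in the *Ucp1* gene itself, where an IRES-Cre cassette follows exon 6, ahead of the 3′-UTR. For the level of *Ucp1* mRNA, the driver allele and the deletion of *Mettl3* therefore cannot be told apart, since the flox/flox mice had neither.

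The respiratory chain pumps protons out of the mitochondrial matrix, and the ATP synthase lets them back in while it makes ATP. UCP1 opens a second way back for protons, which is activated by fatty acids and blocked by purine nucleotides, so that fuel is burned for heat. The other members belong to the same carrier family. The adenine nucleotide translocases exchange ADP for ATP and also carry a fatty acid dependent leak of protons, whereas the remaining relatives of UCP1 are better known for moving metabolites or anions than for making heat.

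Carriers of this family are built from a repeat that holds a conserved signature, a proline, an acidic residue and a basic residue at fixed spacing. The first copy in each member is shown because it is what the 8 genes have in common, with the codons of these 3 residues in capitals (5′ to 3′ on the coding strand, GENCODE M21 transcripts, GRCm38).
*Ucp1*, exon 1, chr8:83290679-83290696, plus strand: CCGctgGACactgccAAA
*Ucp2*, exon 3, chr7:100496919-100496936, plus strand: CCTctgGATaccgccAAG
*Ucp3*, exon 2, chr7:100479563-100479580, plus strand: CCCctgGACaccgccAAG
*Slc25a14*, exon 4, chrX:48630897-48630914, plus strand: CCTgtgGATcttactAAA
*Slc25a27*, exon 2, chr17:43664240-43664257, minus strand: CCCctcGATctcacaAAA
*Slc25a30*, exon 3, chr14:75775117-75775134, minus strand: CCAattGATttaactAAG
*Slc25a4*, exon 1, chr8:46210824-46210841, minus strand: CCGatcGAGagggtcAAA
*Slc25a5*, exon 1, chrX:36795812-36795829, plus strand: CCCatcGAGagggtcAAG

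A search for these 3 codons found exactly 3 copies in the coding sequence of each of the 8 members. At least 3 copies were found in 22 of the 44 other carriers of the family and in 529 of 21617 coding genes (2.45%). The coding sequences divide the members into close pairs. *Slc25a4* and *Slc25a5* shared 77.5% of aligned coding bases and 89.6% of residues. *Slc25a14* and *Slc25a30* shared 79.7% of residues, and *Ucp2* and *Ucp3* 74.8%. *Ucp1* shared 57.4% of residues with *Ucp2*, 54.1% with *Ucp3* and 23.0% with *Slc25a4*. Over whole transcripts, parts outside the coding sequence included, the longest run of identical bases shared by any pair was 24, between *Ucp2* and *Ucp3*.

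Fragments in genes came to an estimated 20224258 in the library labelled BKO and 18933004 in the flox/flox library, of which 18444563 and 17325128 were determined from the deposited values and the rest was estimated from annotated lengths. In all, 22868 genes were above 0 in the library labelled BKO and 22194 in the flox/flox library. Levels are in FPKM, fragments scaled by exon length and library size by the authors, and the ratio of a gene is its FPKM in the library labelled BKO over its FPKM in the flox/flox library. The whole-gene level of the targeted gene was not lower in the library labelled BKO. *Mettl3* was at 2.38 FPKM there and 1.80 FPKM in the flox/flox library, a 1.32-fold higher level (1.08 to 1.62). Only whole-gene values were used, so the floxed exons 2 and 3 were not measured apart. A deletion of these exons need not change the whole-gene value, which therefore neither bears out nor contradicts the labels. Every direction below rests on the labels. All 17 brown adipocyte markers were above 0 in both libraries, with a sum of 4220 FPKM in the library labelled BKO and 6894 FPKM in the flox/flox library, while 12 general adipocyte markers summed to 7180 FPKM and 6992 FPKM. Markers of skeletal muscle and of macrophages differed far more, and those of further cell types are given at the end. The 26 skeletal muscle markers summed to 4951 FPKM in the library labelled BKO and 90.4 FPKM in the flox/flox library. For the 18 macrophage markers the sums were 676 FPKM in the library labelled BKO and 136 FPKM in the flox/flox library.

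Among the uncoupling and leak carriers, *Ucp1* stood alone. It was lower in the library labelled BKO by far more than 2-fold. Of the other 7 members, 5 were modestly higher by more than counting error, 1 (*Slc25a14*) could not be told from equal, and 1 (*Slc25a27*) was modestly lower. All 8 averaged at least 1 FPKM over the 2 libraries, the minimum for a gene to be counted. Of these, 1 was at least 2-fold lower, 0 were higher by that much, and 7 differed by less (0.1 FPKM was added to both values of a gene before it was counted). Of all 12205 genes counted, in the library labelled BKO 5.91% were at least 2-fold lower and 11% at least 2-fold higher. A log2 ratio above 0 was found for 6302 of them and below 0 for 5899. How many of all genes differed by more than counting error was not determined, so the 5 higher members have no background of that kind. Over the 8 members the median log2 ratio was 0.33, against 0.02 over all genes. Rescaling both libraries to the same FPKM sum (TPM) moved the median of all genes to 0.35 and put 2 members, *Ucp2* and *Slc25a4*, past 2-fold upward. With mitochondrially encoded genes left out of that sum, the median was 0.035 and 0 members passed 2-fold upward.

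**Figure D1:**
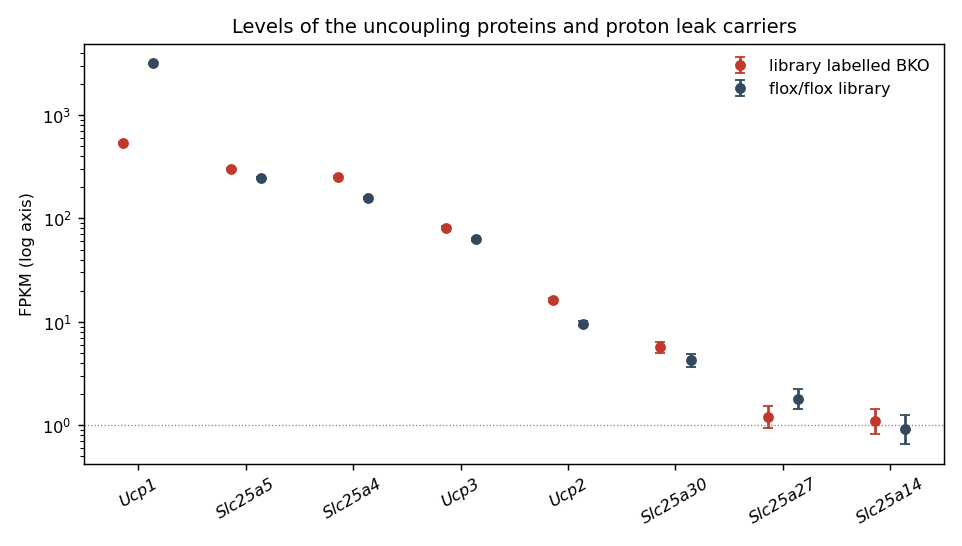
Level of each member in FPKM on a log axis, in the library labelled BKO (red) and the flox/flox library (dark), with bars for the 95% counting interval and a dotted line at the minimum of 1 FPKM. *Ucp1* was at 537 FPKM in the library labelled BKO and 3164 FPKM in the flox/flox library. The members span more than 3 orders of magnitude in the flox/flox library.

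*Ucp1* (ENSMUSG00000031710, chromosome 8, 83290352 to 83298452, plus strand, GRCm38), the heat-producing carrier of brown adipocytes, has 6 exons and 1 annotated transcript. It was at 537 FPKM in the library labelled BKO and 3164 FPKM in the flox/flox library, from 17786 and 90498 fragments. The level was 5.89-fold lower in the library labelled BKO (5.80 to 5.99), a log2 ratio of -2.56. As a share of the estimated total, *Ucp1* took 0.0879% of the fragments in the library labelled BKO (Wilson interval 0.0867 to 0.0892) and 0.478% in the flox/flox library (0.475 to 0.481). It was still a strongly expressed gene. Among nuclear protein-coding genes it ranked number 51 in the library labelled BKO and number 3 in the flox/flox library, where *Scd1* (a fatty acid desaturase) and *Cox6a1* (a subunit of cytochrome c oxidase) were above it.

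The ratio of *Ucp1* was low for so abundant a transcript. Of the 65 nuclear coding genes at 500 FPKM or more in the flox/flox library, none had a lower ratio than *Ucp1*, and their median log2 ratio was -0.49. Of the 65, 8 were at least 2-fold lower, *Ucp1* included. Among all 10652 coding genes counted, 9 had a lower ratio than *Ucp1*, and among all 12205 genes, noncoding ones included, 63 did. The 3 coding genes averaging 10 FPKM or more whose ratios lay nearest were *Eno1b* (log2 ratio -2.38, an enolase), *Gk* (-2.31, glycerol kinase) and *Gmpr* (-2.82, guanosine monophosphate reductase). *Eno1b* was at 28.5 FPKM in the library labelled BKO and 149 FPKM in the flox/flox library, *Gk* at 10.6 and 53.0 FPKM, and *Gmpr* at 23.2 and 165 FPKM. Nearness here means a like ratio over 2 libraries and nothing more.

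*Ucp2* and *Ucp3* are neighbours on chromosome 7. *Ucp3* (ENSMUSG00000032942, 100472990 to 100486432, plus strand), which is found in skeletal muscle and brown fat and is linked to fatty acid use, was at 81.4 FPKM in the library labelled BKO and 62.9 FPKM in the flox/flox library, from 5167 and 3446 fragments, a 1.29-fold higher level (1.24 to 1.35). *Ucp2* (ENSMUSG00000033685, 100493337 to 100502020, plus strand), which is expressed in many tissues and strongly in immune cells, was at 16.2 FPKM in the library labelled BKO and 9.57 FPKM in the flox/flox library, from 2297 and 1169 fragments. This was 1.70-fold higher (1.58 to 1.82), the highest ratio of the 8 members, and its ratio was 1.31 times that of *Ucp3* (1.21 to 1.42). Thus both neighbours were higher where *Ucp1* was lower.

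Markers of muscle and of macrophages were also higher in the library labelled BKO, as were those of fibroblasts and white adipocytes given at the end. Of 25 skeletal muscle markers counted, all 25 were past 2-fold upward, and their median log2 ratio was 5.65. The most abundant was *Acta1* (skeletal actin), at 1389 FPKM in the library labelled BKO and 16.5 FPKM in the flox/flox library, while *Tnnc2* was listed at 0 in both. Of 17 macrophage markers counted, all 17 were past 2-fold upward, with a median of 2.05, and *Lyz2* (lysozyme), the most abundant, was at 237 and 41.0 FPKM. Their part in the levels of *Ucp3* and *Ucp2* was not tested. The exons of *Ucp2* share 305 bases with the end of *Dnajb13* on the other strand, at 1.30 FPKM in the library labelled BKO and 0.272 FPKM in the flox/flox library, while *Ucp3* is overlapped by the antisense gene *Gm10603*, at 0.790 and 1.20 FPKM. Whether the counting used strand, and how fragments in these overlaps were assigned, is not given in the sources used here. How far these partners bear on the values of *Ucp2* and *Ucp3* is therefore not known.

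*Slc25a4* and *Slc25a5* encode the adenine nucleotide translocases ANT1 and ANT2, the most abundant members after *Ucp1*. *Slc25a4* (ENSMUSG00000031633, chromosome 8, 46206797 to 46211284, minus strand), the form that predominates in heart and skeletal muscle, was at 250.4 FPKM in the library labelled BKO and 156 FPKM in the flox/flox library, from 11927 and 6433 fragments. The level was 1.60-fold higher (1.55 to 1.65). *Slc25a5* (ENSMUSG00000016319, chromosome X, 36795651 to 36798807, plus strand), the form of proliferating and many other cells, was at 299 FPKM in the library labelled BKO and 245 FPKM in the flox/flox library, from 9960 and 7051 fragments, and was 1.22-fold higher (1.18 to 1.26).

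The 2 translocases did not differ by the same amount. The ratio of *Slc25a4* was 1.31 times that of *Slc25a5* (1.26 to 1.37), and *Slc25a5* was 1.19 times as abundant as *Slc25a4* in the library labelled BKO and 1.57 times in the flox/flox library. Together they reached 549 FPKM in the library labelled BKO and 401 FPKM in the flox/flox library. The part of the muscle markers in the level of *Slc25a4* was not tested. The value of *Slc25a5* is uncertain in another way, because 8 annotated loci, 7 of them processed pseudogenes, match its transcript at 90% identity or more over at least 100 bases, the closest at 98.3%. Of these, 3 were above 0, with a sum of 7.10 FPKM in the library labelled BKO and 3.88 FPKM in the flox/flox library. No such copy of another member was found apart from the exon that *Ucp2* shares with *Dnajb13*.

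The 3 other relatives were scarce. *Slc25a30* (ENSMUSG00000022003, chromosome 14, 75760117 to 75787037, minus strand), first named for its expression in kidney, was at 5.68 FPKM in the library labelled BKO and 4.23 FPKM in the flox/flox library, 1.34-fold higher (1.12 to 1.62). *Slc25a27* (ENSMUSG00000023912, chromosome 17, 43641891 to 43667214, minus strand), also called UCP4 and best known from brain, was at 1.21 and 1.81 FPKM, 1.49-fold lower (1.07 to 2.09). *Slc25a14* (ENSMUSG00000031105, chromosome X, 48623413 to 48662294, plus strand), also called UCP5 and likewise best known from brain, was at 1.11 FPKM in the library labelled BKO and 0.920 FPKM in the flox/flox library, from 53 and 38 fragments. Its ratio of 1.20 (0.779 to 1.88) was not distinguishable from 1 at this depth, and its mean of 1.01 FPKM only just passed the minimum. For *Slc25a30* and *Slc25a27* several transcript lengths fit the deposited values. Their fragments are therefore lower limits over lengths within 50% of the annotated exon length. For *Slc25a30* they were at least 294 in the library labelled BKO and 189 in the flox/flox library. For *Slc25a27* they were at least 66 and 85. The intervals of both genes are the widest that lengths in this range allow.

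**Figure D2:**
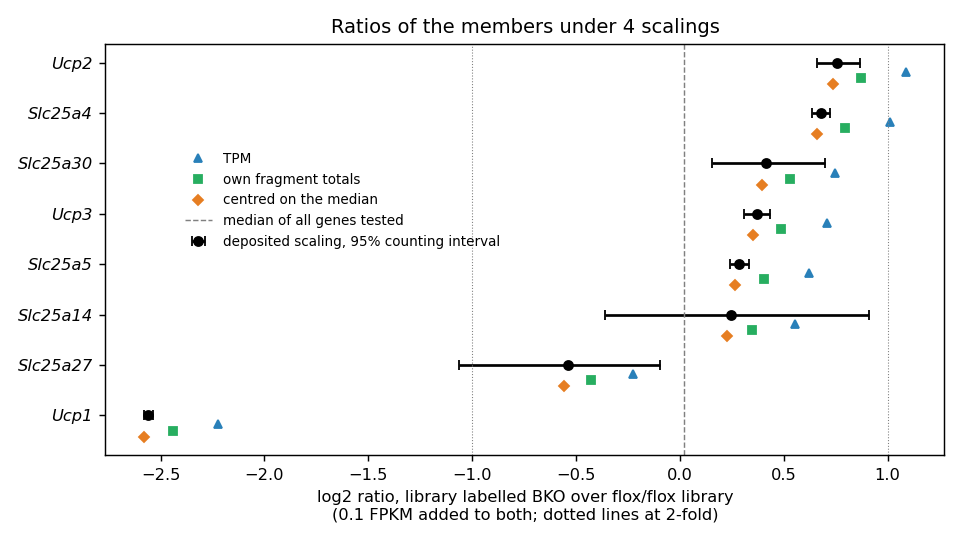
Log2 ratio of each member, as FPKM in the library labelled BKO over FPKM in the flox/flox library, with 0.1 FPKM added to both values, under the deposited scaling (black) and 3 other scalings (TPM, the fragment totals of each library, and centring on the median of all genes). Bars are 95% counting intervals of the plain ratio under the deposited scaling, without the added 0.1 FPKM. No member changes its side of 0, *Ucp1* lies between -2.58 and -2.22 under these 4 scalings, and *Ucp2* (1.09) and *Slc25a4* (1.01) reach 2-fold under TPM.

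The order of levels was the same in both libraries, *Ucp1*, *Slc25a5*, *Slc25a4*, *Ucp3*, *Ucp2*, *Slc25a30*, *Slc25a27* and *Slc25a14*, from high to low in FPKM. Counting intervals of neighbours in this order did not overlap, with 1 exception. In the library labelled BKO, *Slc25a27* (0.939 to 1.54 FPKM) and *Slc25a14* (0.830 to 1.45 FPKM) could not be put in order, whereas in the flox/flox library *Slc25a27* (1.45 to 2.24 FPKM) lay above *Slc25a14* (0.651 to 1.26 FPKM). Levels per length depend on the length used. The union of all exons of *Ucp2* is 6989 bases and its longest coding transcript 3988 bases, and with that shorter length *Ucp2* would stand at 28.5 FPKM in the library labelled BKO and 16.8 FPKM in the flox/flox library, at an unchanged ratio.

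Although the order was the same, the distances were smaller in the library labelled BKO. *Ucp1* made up 45.1% of the summed FPKM of the 8 members in the library labelled BKO and 86.8% in the flox/flox library. *Slc25a5* made up 25.1% in the library labelled BKO and 6.72% in the flox/flox library, *Slc25a4* 21.0% and 4.29%, and *Ucp3* 6.83% and 1.72%. These shares are set within a library and do not depend on how the libraries were scaled against each other. Among *Ucp1*, *Ucp2* and *Ucp3* alone, *Ucp1* held 84.6% in the library labelled BKO and 97.8% in the flox/flox library, *Ucp3* 12.8% and 1.94%, and *Ucp2* 2.56% and 0.296%.

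**Figure D3:**
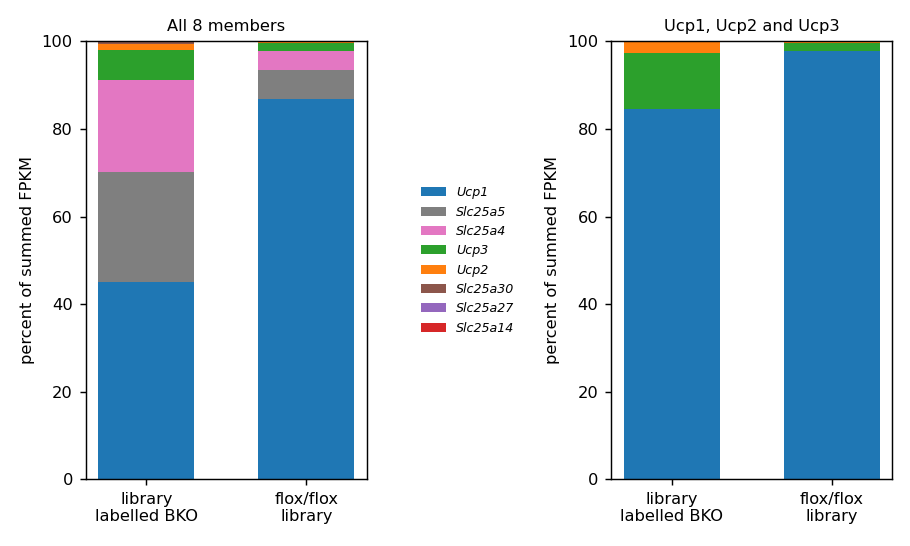
Share of each member in the summed FPKM of all 8 members (left) and of *Ucp1*, *Ucp2* and *Ucp3* alone (right), with the library labelled BKO left of the flox/flox library in each panel. *Ucp1* takes 45.1% of the left bar in the library labelled BKO and 86.8% in the flox/flox library, and the translocases *Slc25a4* and *Slc25a5* take most of the rest.

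The higher levels of the other members came nowhere near the missing *Ucp1* mRNA. *Ucp1* was lower by 2627 FPKM in the library labelled BKO, and the 7 others together were higher by 174 FPKM, at 655 FPKM in the library labelled BKO and 481 FPKM in the flox/flox library. All 8 members summed to 1192 FPKM in the library labelled BKO and 3645 FPKM in the flox/flox library, 3.06-fold lower. There were 6.60 *Ucp1* per *Ucp3* by FPKM in the library labelled BKO and 50.3 in the flox/flox library, 33.1 and 331 per *Ucp2*, and 1.80 and 12.9 per *Slc25a5*. The ratio of *Ucp3* was 7.63 times that of *Ucp1* (7.29 to 7.99).

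*Ucp1* was also lower relative to the genes whose proton gradient it uses. The 60 nuclear genes of the proton pumping complexes I, III and IV were nearly all somewhat lower, 58 of 60 below a log2 ratio of 0, with a median of -0.60 (-0.26 under TPM). Of these, 3 were at least 2-fold lower and 1 at least 2-fold higher. *Cox6a1*, the most abundant, was at 2626 FPKM in the library labelled BKO and 3808 FPKM in the flox/flox library. The lowest ratio was that of *Cox4i2* (2.38 and 7.62 FPKM), another cytochrome c oxidase subunit. The highest was that of *Cox6a2*, the cytochrome c oxidase subunit of heart and skeletal muscle, which was at 66.3 FPKM in the library labelled BKO and 1.43 FPKM in the flox/flox library. *Ucp1* stood at 2.64 times the median level of these 60 genes in the library labelled BKO and 9.97 times in the flox/flox library.

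The ATP synthase, the route for protons that competes with uncoupling, gave a like picture. Its 17 genes had a median log2 ratio of -0.52 (-0.18 under TPM), with 14 below 0, none at least 2-fold lower and 1 at least 2-fold higher. *Atp5b*, the catalytic beta subunit, was at 993 FPKM in the library labelled BKO and 1572 FPKM in the flox/flox library, while *Atp5j2* had the lowest ratio, at 114 and 211 FPKM. The gene past 2-fold was *Atp5g1*, which encodes subunit c of the proton-carrying ring, at 7.30 FPKM in the library labelled BKO and 0.512 FPKM in the flox/flox library. *Ucp1* stood at 3.24 times the median level of the ATP synthase genes in the library labelled BKO and 12.9 times in the flox/flox library.

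Other routes through the inner membrane differed less under the deposited scaling. Of 10 genes for other ion and proton routes, 9 were counted, with a median log2 ratio of -0.11 that was 0.21 under TPM, and 1 was at least 2-fold higher. *Mcub*, a subunit that restrains the calcium uniporter, was at 3.45 FPKM in the library labelled BKO and 0.608 FPKM in the flox/flox library, 5.68-fold higher (3.22 to 10.8). *Ghitm*, a proton and calcium exchanger and the most abundant of the list, was at 191 and 341 FPKM. *Nnt*, the proton-driven transhydrogenase, had 3 and 1 fragments in all and was left out by the minimum. For scale, 18 genes of general mitochondrial content had a median of -0.30 (0.034 under TPM) with none past 2-fold. Among them *Cs* (citrate synthase) was at 236 FPKM in the library labelled BKO and 389 FPKM in the flox/flox library, *Opa1* (inner membrane fusion) at 17.2 and 31.2 FPKM, and *Timm23* (protein import) at 105 and 67.2 FPKM.

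**Figure D4:**
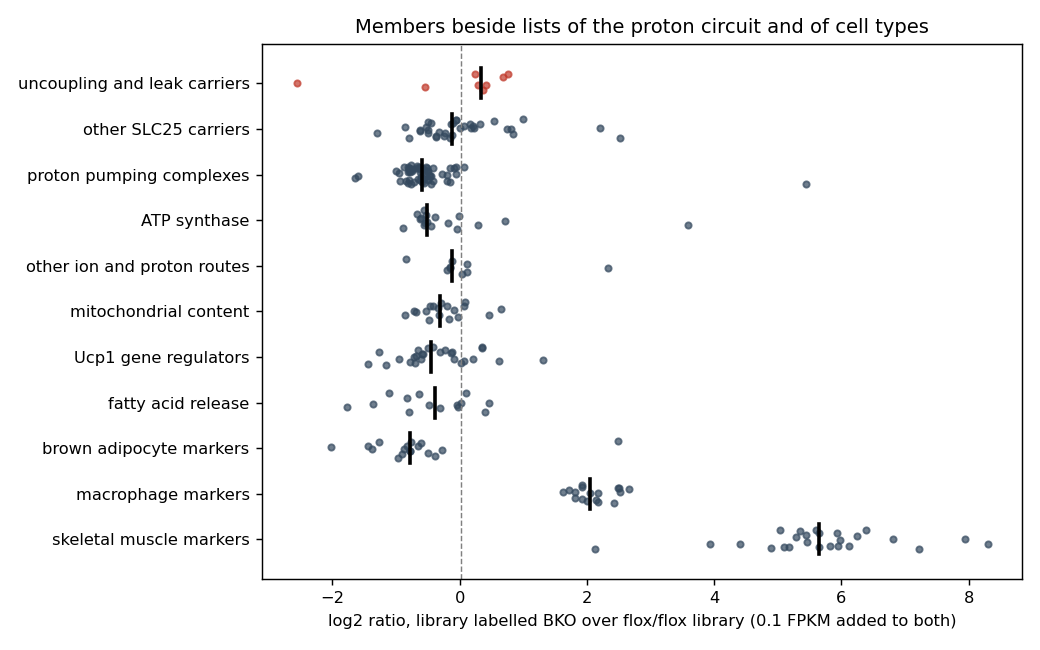
Log2 ratio (FPKM in the library labelled BKO over FPKM in the flox/flox library, 0.1 FPKM added to both) for each counted gene of the members (top row, red) and of 10 other lists, with a black bar at the median of each list. The point of *Ucp1* lies at -2.56, far left of the proton pumping complexes (median -0.60), and the muscle and macrophage markers lie to the right (medians 5.65 and 2.05).

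The rest of the carrier family is the natural background for the members. Of the 44 other carriers, 35 were counted, and of these 3 were at least 2-fold higher, 1 was lower by that much and 31 differed by less, at a median log2 ratio of -0.13 that was 0.21 under TPM. Their summed level was 1394 FPKM in the library labelled BKO and 1493 FPKM in the flox/flox library. No carrier of the family reached the ratio of *Ucp1* in the downward direction, and the lowest was *Slc25a34*, at 7.66 FPKM in the library labelled BKO and 19.0 FPKM in the flox/flox library, 2.48-fold lower (2.20 to 2.79), which came to less than 2-fold under TPM. *Slc25a10*, the dicarboxylate carrier, was 5.83-fold higher (5.25 to 6.48), at 39.8 FPKM in the library labelled BKO and 6.82 FPKM in the flox/flox library. *Slc25a12*, an aspartate and glutamate carrier of brain and muscle, was at 3.90 and 0.764 FPKM, 5.11-fold higher (4.12 to 6.40), and *Slc25a29*, a carrier of basic amino acids, at 2.52 and 1.21 FPKM, 2.09-fold higher (1.51 to 2.91). *Slc25a29* was at the threshold, and it no longer passed 2-fold with 1 FPKM added in place of 0.1 FPKM (log2 ratio 0.67) or after centring on the median of all genes (0.98). *Slc25a1*, the citrate carrier and the most abundant of the 44, was at 269.8 FPKM in both libraries (ratio 1.00, 0.963 to 1.04).

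No counted regulator of the *Ucp1* gene had as low a ratio as *Ucp1*. Of 28 listed, 26 were counted, 19 of them below a log2 ratio of 0, with a median of -0.45 that was -0.12 under TPM. At least 2-fold lower were *Prdm16*, a determinant of brown fat identity (2.13 FPKM in the library labelled BKO and 5.98 FPKM in the flox/flox library, 2.81-fold, 2.50 to 3.16), the coactivator *Ppargc1a* (5.27 and 12.9 FPKM) and the thyroid hormone receptor *Thra* (12.5 and 28.0 FPKM). *Nrip1*, a corepressor of *Ucp1*, was the only one at least 2-fold higher, at 5.01 FPKM in the library labelled BKO and 1.96 FPKM in the flox/flox library, 2.55-fold (2.27 to 2.87). *Cebpb*, the most abundant of the list, was at 173 and 136 FPKM.

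Fatty acids, which activate UCP1, are released by hormone-driven lipolysis. Of 14 genes of that route, 3 were at least 2-fold lower and none at least 2-fold higher, with a median log2 ratio of -0.39 that was -0.05 under TPM. The 3 act in the signal that starts it: *Adcy3* (adenylyl cyclase) was at 10.7 FPKM in the library labelled BKO and 36.7 FPKM in the flox/flox library, *Adrb1* (an adrenergic receptor) at 5.51 and 14.4 FPKM, and *Gnas* (a G protein subunit) at 10.2 and 22.2 FPKM. *Pnpla2*, the first lipase of the route and its most abundant gene, was at 843 FPKM in the library labelled BKO and 1170 FPKM in the flox/flox library, while its inhibitor *G0s2* had the highest ratio, at 447 and 325 FPKM.

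Markers of brown adipocytes were lower as a list, though by less than *Ucp1*. Over the 17 brown adipocyte markers, in which *Ucp1* is not included, the median log2 ratio was -0.79 (-0.45 under TPM), with 4 at least 2-fold lower and 1 at least 2-fold higher. The list is not separate from those above. It shares *Prdm16*, *Ppargc1a* and *Ebf2* with the regulators of *Ucp1*, and *Cox7a1* and *Cox8b* with the proton pumping complexes. *Slc27a2*, a very long chain acyl-CoA synthetase, had the lowest ratio, at 27.9 FPKM in the library labelled BKO and 113 FPKM in the flox/flox library. *Elovl3*, a fatty acid elongase, ran the other way, at 119 and 21.1 FPKM. *Cox8b*, the most abundant, was at 1659 FPKM in the library labelled BKO and 3051 FPKM in the flox/flox library. General adipocyte markers had a median of 0.03 with none past 2-fold. Thus *Ucp1* was lower than the median of both adipocyte lists, and how far fewer brown adipocytes bear on its level was not tested.

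The m6A enzyme acts at a family of related short motifs, of which GGACT (with U for T in RNA) is a common one, so the members' transcripts were searched for these letters, on the sense strand of the longest coding transcript of each gene. *Ucp1* had 0 matches in its 1636 bases, and *Slc25a14* also had 0. Of 1890 counted transcripts of like length, 85.8% held at least 1. *Ucp3* had 8 matches, 4 in the coding part and 4 after it, 3.27 per kilobase against 1.10 per kilobase over all 10613 coding transcripts searched, and 1.20% of 2674 transcripts of its length held as many. *Slc25a30* had 4, *Slc25a27* 3, *Slc25a4* and *Slc25a5* 2 each, and *Ucp2* 1.

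The 4 matches of *Ucp3* after its coding part all lie in exon 7, the last, on the plus strand, and are shown with 10 bases on either side and the motif in capitals (GENCODE M21, GRCm38).
chr7:100485850-100485874: atgcacacctGGACTgcatggtaag
chr7:100485962-100485986: caaagcagcaGGACTcagaatcttt
chr7:100485989-100486013: ggaattgttaGGACTggtaaaagaa
chr7:100486300-100486324: aggacagaatGGACTcttgcaaatt

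Of 4 related forms also searched, some did occur in *Ucp1*, GGACA 2 times and GGACC 3 times, all in the coding part, whereas AGACT and GAACT occurred 0 times. At least 1 GGACA was found in 90.7% of the transcripts of like length, and at least 1 GGACC in 87.5%. The 2 GGACA matches are shown in the same way, in exon 1 and exon 5 on the plus strand, and the one in exon 1 lies within the first carrier signature given above.
chr8:83290674-83290698: ccttcccgctGGACActgccaaagt
chr8:83295266-83295290: ctctctgccaGGACAgtacccaagc

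A match describes letters and not a methylated site, and the lack of a match says only that these letters are not in that transcript. Further forms of the motif were not searched, so whether a transcript is methylated cannot be read from these counts. No measurement of m6A was used here.

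For the 7 members other than *Ucp1*, the coding genes of nearest ratio that averaged 10 FPKM or more lay within 0.01 log2 units, in a range where many genes lie. They were *Srm*, *Trmt10c* and *Ppp1r1a* for *Ucp2*, *Cops8*, *Sertad1* and *Cdk2ap1* for *Ucp3*, *Atraid*, *Mrps7* and *Exosc4* for *Slc25a4*, and *Impad1*, *Tmem238* and *Drap1* for *Slc25a5*. For the scarce members they were *Srp68*, *Sh3gl1* and *Rap1b* (*Slc25a30*), *Decr2*, *Ugp2* and *Hnrnph1* (*Slc25a27*), and *Gramd1a*, *Gsto1* and *Psmc3* (*Slc25a14*). For *Ucp1*, by contrast, the nearest gene was 0.17 log2 units away.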

How the data were processed

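RNA-seq was done on iBAT of BKO and flox/flox mice, 1 library per group from RNA pooled over 4 mice. Per the labels and the study's methods, the authors aligned paired-end reads to GRCm38 with TopHat2 and counted them per gene with HTSeq (version 0.6.1), and each gene had 1 deposited FPKM value in each library. The step from counts to FPKM and the handling of strand and of multiply mapped reads are not given in the sources used here.

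The unit is not a count, so no count test was used. Multiplying FPKM by exon length gave whole multiples of a constant in each library (within 0.001 fragments), and hence the fragments of 11298 of the 12205 genes counted (92.6%). The constants were 20240633 fragments for the library labelled BKO and 17480546 for the flox/flox library, 100.1% and 92.3% of their estimated fragment totals, and the deposited scaling was kept. Names and coordinates came from GENCODE M21, which matched 52489 genes by identifier and left 279 unmatched.

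Log2 ratios were computed with a pseudocount of 0.1 FPKM, so the change of low genes is understated, and genes averaging at least 1 FPKM were counted at a 2-fold threshold. Folds are plain FPKM ratios with an exact (Clopper-Pearson) interval, levels carry exact Poisson intervals and shares of fragments Wilson intervals. The ratio of 2 folds carries a log-normal interval. All cover counting error only, and they may be too narrow even for that, since PCR duplicates are not separate molecules. Near copies were found by aligning transcripts. Python 3.11.15 with SciPy 1.17.1 and Biopython 1.88 was used, and the scripts were tested on simulated data. Alternatives covered pseudocounts of 1 and 0.01 FPKM, no minimum and a minimum of 5 FPKM, TPM with all genes and without mitochondrially encoded genes or muscle markers, centring on the median, each library's own total and, for shares, fragments or a subset of members.

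The members and lists were chosen with earlier results of these data known. Named genes were all members, the most abundant gene and the extreme ratios of each list, every other carrier past 2-fold, and the 3 genes nearest to each member in ratio. Of lists named by this rule, several marker lists are given by their sums or most abundant gene. *Scd1*, *Ppargc1a*, *Thra*, *Adrb1*, *Gnas*, *Atpif1*, *Nnt* and *Tnnc2*, and the genes overlapping *Ucp2* and *Ucp3*, are not covered by the rule and were picked with their values in view.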

Additional observations from a re-analysis of the deposited data

How the results depend on the processing

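Scaling moved all genes together. The median log2 ratio of all genes was 0.02 as deposited, 0.35 with TPM, 0.37 with TPM without the muscle markers and 0.13 with each library's own fragment total, and the members shifted with it, to medians of 0.66, 0.68 and 0.45 against 0.33. Under TPM, with or without the muscle markers, 2 members passed 2-fold upward against 0 (*Ucp2*, 1.09 and 1.11 on the log2 scale, and *Slc25a4*, 1.01 and 1.03), of the other carriers 6 were higher against 3 and 0 lower against 1, and 17.2% of all genes were higher and 3.35% lower under TPM. With a pseudocount of 1 FPKM or centring on the median, 2 other carriers were higher, without *Slc25a29*. A minimum of 5 FPKM left 1 other carrier higher and dropped *Slc25a14*, *Slc25a27* and *Slc25a30*.

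The medians of 3 lists changed sign under TPM with and without the muscle markers: other carriers (0.21 and 0.23 against -0.13), other ion and proton routes (0.21 and 0.23 against -0.11) and mitochondrial content (0.034 and 0.053 against -0.30). With mitochondrially encoded genes left out of the TPM sum, these medians kept their sign, at -0.11, -0.099 and -0.285 in the same order. The median of all genes was then 0.035. The counts of members and of other carriers past 2-fold were as deposited. All 69 alternative values of single members kept their sign. *Ucp1* lay between -2.58 and -2.20, and *Slc25a14* between 0.13 and 0.57.

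The share of *Ucp1* among the members was 37.4% by fragments, 84.6% among *Ucp1*, *Ucp2* and *Ucp3*, and 38.8% by longest coding transcript length in the library labelled BKO, against 45.1%, and 83.1%, 97.8% and 83.6% in the flox/flox library, against 86.8%. The transcript length was chosen after seeing the data, and with it *Slc25a14* (1.66 FPKM) and *Slc25a27* (1.65 FPKM) changed places in the library labelled BKO. No paired analysis was possible because each group was 1 library, and for the same reason no library could be left out. Depth limits *Slc25a14* most, with 53 fragments in the library labelled BKO and 38 in the flox/flox library.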

Other observations

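Markers of further cell types, which bear on no single member, were also at different levels in the 2 libraries. The 10 endothelial markers all had log2 ratios below 0, with 5 at least 2-fold lower and a sum of 126 FPKM in the library labelled BKO and 277 FPKM in the flox/flox library, *Cdh5* (the cadherin of endothelial junctions) being the most abundant, at 26.1 and 71.9 FPKM. Of 7 fibroblast markers, 6 were at least 2-fold higher, with a sum of 579 FPKM in the library labelled BKO and 141 FPKM in the flox/flox library, led by *Col3a1* (a fibrillar collagen) at 214 and 48.3 FPKM. All 3 counted white adipocyte markers were at least 2-fold higher, among them *Lep* (leptin), at 17.4 FPKM in the library labelled BKO and 1.76 FPKM in the flox/flox library. Nerve and Schwann cell markers summed to 25.4 FPKM in the library labelled BKO and 50.2 FPKM in the flox/flox library, while lymphocyte markers summed to 3.05 FPKM and 5.13 FPKM.

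*Atpif1*, the inhibitor of the ATP synthase, was 1.65-fold higher in the library labelled BKO (1.32 to 2.07), at 8.13 FPKM in the library labelled BKO and 4.92 FPKM in the flox/flox library, while the median of the 17 ATP synthase genes, to which it belongs, was below 0. The fold of *Atp5g1* was 14.2 (10.5 to 19.8), from 726 and 44 fragments, and its value is uncertain, since this gene is known to have processed copies.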
